A study of Homo sapiens with 4 samples.

Results

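The genes described here are those of cholesterol and fatty acid synthesis: the enzymes that build both lipids from acetyl-CoA, and the proteins that set how much of those enzymes a cell makes. Of 31 listed genes, 28 had a probe set that the platform annotation maps to that gene's symbol alone, and these stand among 19775 genes measured. FDFT1, CYP51A1 and FADS1 had none and are not analysed here. Where a gene had several probe sets, the one with the highest mean over the 4 arrays stood for it.

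The cells were AGS, a long-established line from a human gastric adenocarcinoma, and their RNA was measured on one-colour Affymetrix arrays. The untreated group held 2 arrays of cells given fresh medium, and the LPS group held 2 arrays of cells given medium with 10 µg/ml lipopolysaccharide of Helicobacter pylori. Both were harvested at 8 h, both carried the same serum-containing medium before treatment, and neither had any other agent. The series text speaks of 2 independent experiments, but the labels do not say which arrays shared one, and p-values here measure only the spread between these arrays.

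Cells make cholesterol from acetyl-CoA through mevalonate, squalene and lanosterol, and make long-chain fatty acids from the same precursor through malonyl-CoA. Transcription of most of these enzymes is driven by the sterol regulatory element binding proteins, SREBP1 and SREBP2, which SCAP escorts out of the endoplasmic reticulum when membrane cholesterol is low. INSIG proteins hold SCAP back when sterols are plentiful, and INSIG1 is itself an SREBP target, so that its transcript is widely used as a readout of the pathway. SREBP2 mainly drives the sterol enzymes and SREBP1 mainly the fatty acid enzymes.

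No gene of the group passed the test between LPS-treated and untreated cells. With limma, 0 of the 28 passed the threshold of 0.05 adjusted over all genes (adjusted p = 1 for each), and 0 reached an unadjusted p under 0.05. Among all 19775 genes 0% passed the adjusted test in either direction, and 2.83% reached the unadjusted level, 1.26% on the higher and 1.57% on the lower side. These counts come from the fit without pairing. With the replicate number as a block, a pairing the labels do not state, 3 of the 28 (10.7%) reached the unadjusted level, against 7.52% of all genes. None passed the adjusted test there. DHCR7, which catalyses the last reduction to cholesterol, had the widest difference of the group, -0.31 on the log2 scale, followed by INSIG1 at -0.26 and HMGCS1 at -0.22. The difference was under 0.1 in size for 18 of the 28 genes, among them both SREBP genes, SQLE, FASN, SCD and ACLY. That was 64.3% of the group, against 61% of all genes.

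The promoter sequences of these genes were searched for short motifs. The windows run from 250 bases before to 50 bases after each RefSeq start site (GRCh38.p14), and 25 of the 28 genes had at least 1, giving 35 windows. FASN, SQLE and ACAT2 were not in the table used. The 3 windows below are shown from their most upstream start, 250 bases before it, 5′ to 3′ on the gene's strand. INSIG1 and HMGCS1 are shown as SREBP targets with the widest differences among genes whose arrays did not overlap, and SREBF2 as the one gene whose window held the sterol regulatory letters searched. Capitals mark the sterol regulatory letters TCACNCCAC, the box CCAAT that the factor NF-Y binds, and the E-box CACGTG, each on either strand.
INSIG1 (chr7:155297628-155297877, + strand): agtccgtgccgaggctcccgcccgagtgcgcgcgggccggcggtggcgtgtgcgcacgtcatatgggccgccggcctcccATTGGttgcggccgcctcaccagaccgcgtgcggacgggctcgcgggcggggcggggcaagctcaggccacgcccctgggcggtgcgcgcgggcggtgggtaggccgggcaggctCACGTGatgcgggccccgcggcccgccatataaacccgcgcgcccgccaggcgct
HMGCS1 (chr5:43313413-43313662, - strand): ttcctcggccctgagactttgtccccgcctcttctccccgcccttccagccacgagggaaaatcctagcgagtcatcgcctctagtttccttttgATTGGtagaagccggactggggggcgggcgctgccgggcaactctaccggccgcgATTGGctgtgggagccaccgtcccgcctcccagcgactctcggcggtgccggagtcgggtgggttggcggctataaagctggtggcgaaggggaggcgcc
SREBF2 (chr22:41832855-41833104, + strand): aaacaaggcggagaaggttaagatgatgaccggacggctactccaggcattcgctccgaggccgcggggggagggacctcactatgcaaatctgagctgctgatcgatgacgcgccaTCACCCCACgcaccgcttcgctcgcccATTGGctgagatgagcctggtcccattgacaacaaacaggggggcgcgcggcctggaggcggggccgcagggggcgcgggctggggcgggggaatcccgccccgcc

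In the SREBF2 stretch the capitals are TCACCCCAC, 133 to 125 bases before the start, and a CCAAT box on the reverse strand 106 to 102 bases before it. INSIG1 held a CCAAT box at 170 to 166 bases and an E-box at 55 to 50 bases before its start, and HMGCS1 held 2 CCAAT boxes. The letters CCAAT stood in 24 of the 35 windows, or 68.6%, and in 20 of the 25 genes, against 34.6% of all 35116 windows in the table. The GC box GGGCGG, which Sp1 binds, stood in 88.6% of the windows against 45.0% of all. CACGTG stood in 14.3% against 7.26%, in LSS, SC5D, SCAP and INSIG1, and TCACNCCAC in 1 window, or 2.86%, against 1.13%. DHCR7, the gene with the widest difference, is not shown. The 250 bases before its most upstream start held none of these motifs, though CCAAT and GGGCGG stood elsewhere in its windows. None of these motifs contains another, and windows of the same gene overlap in part. The windows of all genes were not matched to the group for expression or base content, and the part of either in these shares was not tested. A match here is a run of letters and not a measured binding site, and a window without one says only that these letters are not in it.

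The enzymes of the mevalonate pathway gave 7 measured genes, with a median difference of 0.01 on the log2 scale, or -0.05 when all probe sets of a gene were averaged. ACAT2, the cytosolic thiolase that joins acetyl-CoA units at the start, was at 9.78 and 9.71 in untreated cells and at 9.66 and 9.53 in treated cells. Both treated arrays lay below both untreated arrays, by -0.15 ± 0.11 (SE) on average. HMGCS1, the synthase that makes HMG-CoA, was at 8.43 and 8.27 in untreated cells and at 8.02 and 8.24 in treated cells. The arrays did not overlap, but the nearest treated and untreated arrays were within 0.04 of each other, and the dimmer HMGCS1 probe set was higher with LPS, by 0.04. The LPS to untreated ratio of HMGCS1 was 0.856, with a 95% interval of 0.693 to 1.06 (limma, unadjusted p = 0.126). Leaving out LPS replicate 1 brought its difference to -0.11, and leaving out LPS replicate 2 to -0.34.

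MVK, the kinase that first phosphorylates mevalonate, was at 8.53 and 8.55 in untreated and at 8.58 and 8.70 in treated cells. Its treated arrays were both higher, by 0.10 ± 0.11 (SE), and its 4 probe sets ran from -0.06 to 0.27. PMVK, the next kinase, was at 9.84 and 10.02 against 9.84 and 9.93, and MVD, the decarboxylase that yields isopentenyl diphosphate, was dim at 6.36 and 6.60 against 6.35 and 6.79. In both genes the arrays numbered 1 were low and those numbered 2 high, in treated and untreated cells alike. IDI1, which isomerises isopentenyl diphosphate, was at 9.98 on both untreated arrays and at 10.03 and 9.95 on the treated ones, and FDPS, which condenses these units to farnesyl diphosphate, was at 11.56 and 11.62 against 11.66 and 11.62. The FDPS interval, 0.902 to 1.18 as a ratio, is among the narrowest of the group.

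Squalene is the first compound committed to sterols, and 2 genes of this step were measured. SQLE, the epoxidase that oxidises squalene, was at 10.06 and 10.04 in untreated and 10.06 and 10.06 in treated cells. The treated arrays lay above the untreated ones by a difference of 0.01, which had an SE of 0.10. Its dimmer probe sets differed by -0.06 to 0.18. LSS, the cyclase that forms lanosterol, was at 9.50 and 9.64 against 9.49 and 9.61, with an LPS to untreated ratio of 0.986 (95% interval 0.823 to 1.18). Its arrays overlapped, and the replicate numbers were further apart than the groups.

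**Figure D1:**
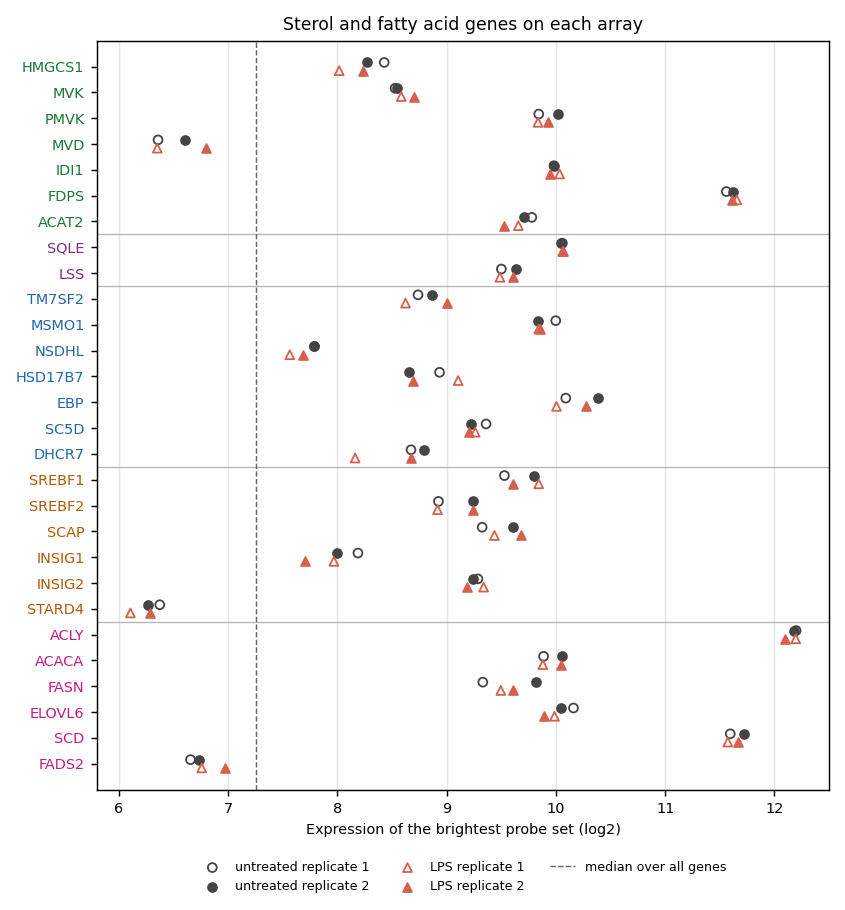
Log2 expression of the 28 genes on each array (horizontal axis), grouped by pathway step, with circles for untreated and triangles for LPS-treated arrays, open for replicate 1 and filled for replicate 2. The dashed line is the median over all genes, 7.25, and MVD, STARD4 and FADS2 lie to its left. The groups interleave in most rows, and SREBF2 shows both replicate 2 arrays to the right of both replicate 1 arrays.

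Conversion of lanosterol to cholesterol was represented by 7 genes, with a median difference of -0.06, or 0.005 with all probe sets of a gene averaged, and 5 of the 7 lay below 0 on the brightest probe set. DHCR7 was at 8.67 and 8.79 in untreated cells and at 8.16 and 8.67 in treated cells. LPS replicate 1 was low, while LPS replicate 2 stood level with untreated replicate 1, so the groups overlapped and the treated arrays were 0.51 apart. The ratio of LPS to untreated was 0.804 with a 95% interval of 0.608 to 1.06 (limma, unadjusted p = 0.11). The second DHCR7 probe set differed by -0.32, and there both treated arrays were below both untreated arrays. Without LPS replicate 1 the DHCR7 difference was -0.06, and without LPS replicate 2 it was -0.57.

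NSDHL, which takes part in removing the methyl groups at carbon 4, was at 7.79 on both untreated arrays and at 7.56 and 7.69 on the treated ones. Both treated arrays were lower, by -0.16 ± 0.12 (SE). Its second probe set, nearly as bright, differed by -0.12, but there the treated and untreated arrays overlapped. MSMO1, the oxidase that acts before NSDHL, was at 10.00 and 9.83 against 9.84 and 9.86, with untreated replicate 1 apart from the other arrays. HSD17B7, the reductase that completes the demethylation, was at 8.93 and 8.65 against 9.11 and 8.69, with the arrays numbered 1 high in both groups. It was measured by an _x_at probe set, which can share signal with related sequences.

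EBP, the sterol isomerase, was at 10.09 and 10.39 in untreated and 10.00 and 10.27 in treated cells, where the arrays numbered 2 were high in both groups. Its 4 probe sets differed by -0.10 to 0.09. SC5D, the desaturase that follows EBP, was at 9.36 and 9.22 against 9.26 and 9.20, and TM7SF2, a sterol reductase of the endoplasmic reticulum, was at 8.74 and 8.86 against 8.62 and 9.00. The TM7SF2 treated arrays lay on both sides of the untreated arrays.

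The SREBP system itself gave 6 genes with a median difference of -0.005. SREBF2 was at 8.92 and 9.24 in untreated and at 8.92 and 9.24 in treated cells. The groups were alike to within 0.01 on average, while replicate 2 exceeded replicate 1 by 0.32 in each group, and the ratio had an interval of 0.772 to 1.28. SREBF1 was at 9.53 and 9.80 against 9.84 and 9.61, so that the higher array was replicate 2 in untreated and replicate 1 in treated cells. SCAP, the escort, was at 9.32 and 9.61 against 9.44 and 9.68, and its difference of 0.09 was smaller than the gap within either group.

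INSIG1 was at 8.19 and 8.00 in untreated cells and at 7.97 and 7.70 in treated cells. Both treated arrays were below both untreated arrays, by -0.26 ± 0.14 (SE), although LPS replicate 1 and untreated replicate 2 were only 0.03 apart. The ratio was 0.836, with a 95% interval of 0.666 to 1.05 (limma, unadjusted p = 0.104), which was the smallest unadjusted p of the 28 genes. All 3 INSIG1 probe sets lay below 0, at -0.26, -0.15 and -0.09. INSIG2, its paralogue, was at 9.29 and 9.24 against 9.34 and 9.19, with a difference of -0.003 and an interval of 0.834 to 1.19 as a ratio. The difference between the INSIG genes was not tested. STARD4, a sterol carrier protein and SREBP target, was dim at 6.37 and 6.26 against 6.11 and 6.28, and its arrays overlapped.

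**Figure D2:**
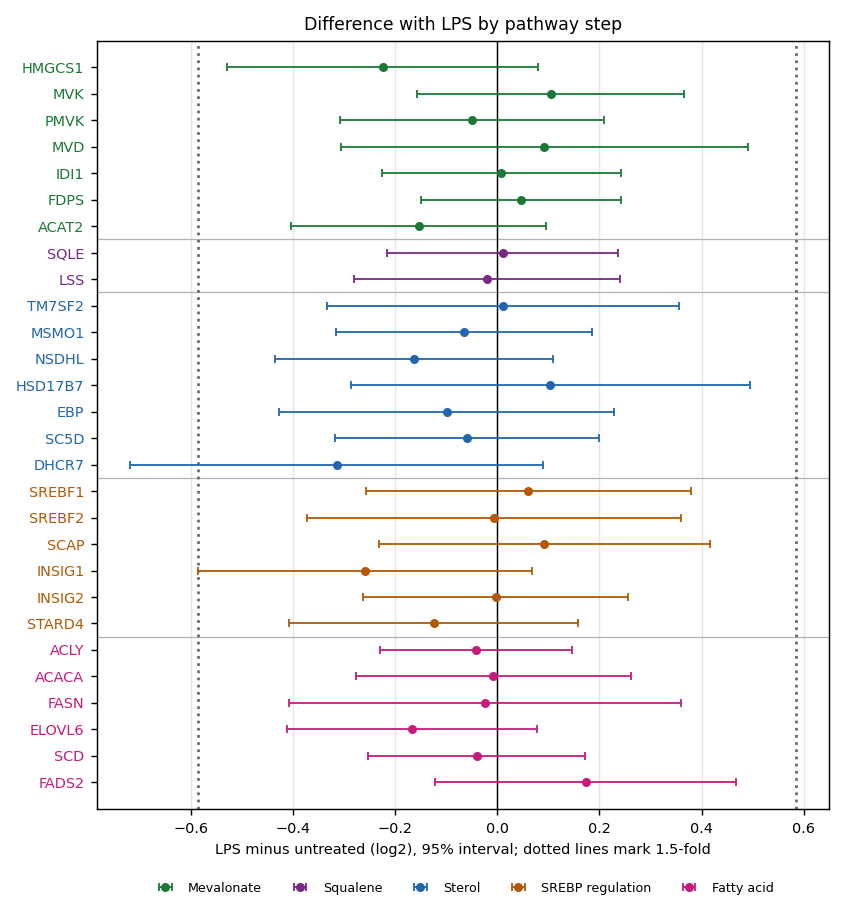
LPS minus untreated on the log2 scale for each gene (points) with the 95% interval of the limma fit (bars), coloured by pathway step, with dotted lines at a 1.5-fold difference either way. Every interval covers 0, and those of DHCR7 and INSIG1 reach past the 1.5-fold line on the lower side.

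Fatty acid synthesis and desaturation gave 6 measured genes, with a median difference of -0.03, which turned to 0.05 without untreated replicate 2. ACLY, which makes cytosolic acetyl-CoA from citrate, was at 12.20 and 12.18 in untreated and 12.19 and 12.10 in treated cells, a ratio of 0.971 with an interval of 0.852 to 1.11. ACACA, the carboxylase that makes malonyl-CoA, was at 9.89 and 10.06 against 9.88 and 10.05, with nearly the same pair of values in each group. FASN, the synthase that extends the chain, was at 9.33 and 9.82 against 9.50 and 9.61. Both treated FASN arrays lay between the untreated ones, and the gap of 0.49 between the untreated arrays was the widest within that group for any of the 28 genes.

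ELOVL6, which lengthens palmitate, was at 10.16 and 10.05 in untreated and at 9.99 and 9.89 in treated cells. Both treated arrays were lower, by -0.17 ± 0.10 (SE), and the difference exceeded the gap between arrays in either group, as it did also for HMGCS1, ACAT2 and NSDHL. Those 4 genes are 14.3% of the group, against 18.9% of all genes, and HMGCS1 is among them by a margin of 0.002. The dimmer ELOVL6 probe sets differed by -0.08 and -0.01. SCD, the desaturase that makes oleate, was at 11.60 and 11.72 against 11.57 and 11.67, and its 4 probe sets all lay below 0, from -0.25 to -0.02. The dimmer SCD probe sets at -0.25 and -0.09 had both treated arrays below both untreated arrays. On the brighter ones, at -0.04 and -0.02, the arrays overlapped. FADS2, the desaturase that begins the conversion of essential fatty acids to long polyunsaturated ones, was at 6.66 and 6.73 against 6.76 and 6.98. Both treated arrays were higher, by 0.17 ± 0.13 (SE), which was the widest difference above 0 with all 4 arrays, and its second probe set differed by 0.16. Without LPS replicate 2 the FADS2 difference was 0.06 and that of HSD17B7 was 0.31. FADS2 lay below the median over genes. There, values of the RMA form, which these have, can compress differences, and part of the signal can be background. Neither was measured here.

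Counted over the whole group, 18 of the 28 genes (64.3%) lay below 0, against 43.4% of all genes. The other 10 lay above 0, as did 56.4% of all genes. The median difference was -0.02, against 0.02 over all genes. Treated arrays lay below untreated arrays without overlap in 5 genes (INSIG1, HMGCS1, ELOVL6, NSDHL and ACAT2), or 17.9%, against 11.7% of all genes. They lay above without overlap in 3 (FADS2, MVK and SQLE), or 10.7%, against 17.9% of all genes. In either direction that was 28.6% of the group against 29.6% of all genes. Without untreated replicate 2, 12 of the 28 genes lay below 0 and the median was 0.02. The count was 15 without LPS replicate 1 (median -0.02) and 19 without untreated replicate 1 (median -0.07) or LPS replicate 2 (median -0.08). When all probe sets of a gene were averaged, 15 lay below 0 and the median was -0.003. The share below 0 and the median over all genes were not computed in these other settings. Members of one pathway on the same arrays are not independent of each other.

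**Figure D3:**
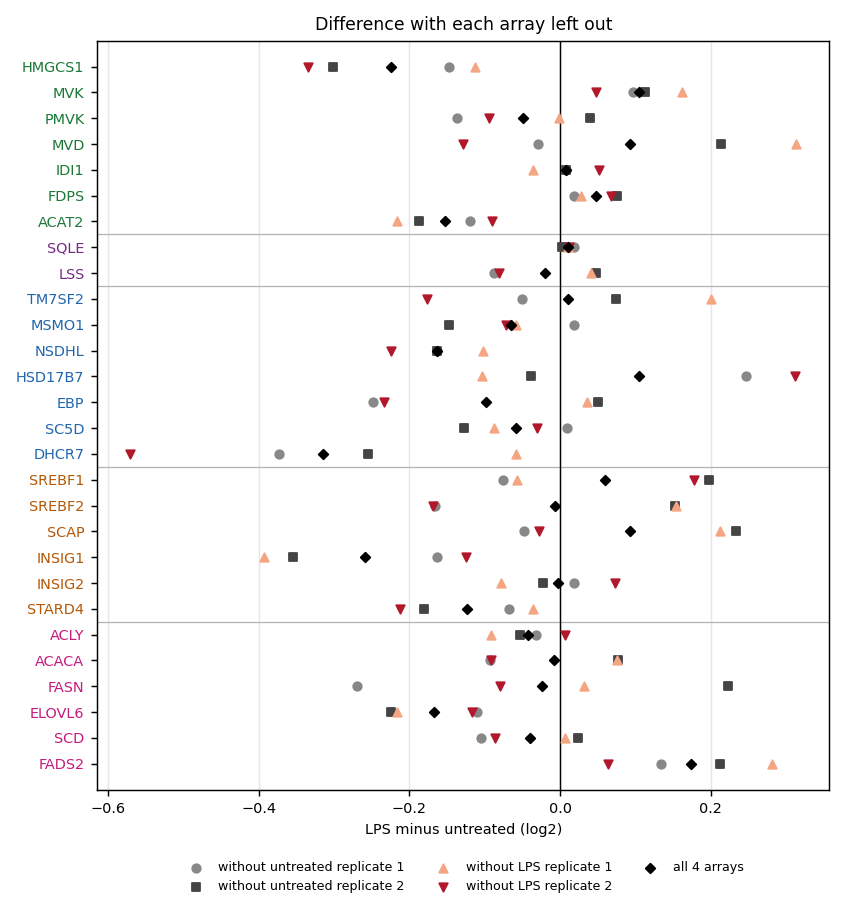
LPS minus untreated on the log2 scale with all 4 arrays (black diamonds) and with each array left out in turn (other symbols). DHCR7 runs from -0.57 to -0.06, INSIG1 from -0.39 to -0.13 and FASN from -0.27 to 0.22.

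Of the 18 genes with several probe sets, 6 had all of them below 0: NSDHL, DHCR7, INSIG1, ACACA, ELOVL6 and SCD. FADS2 alone had all above 0, and 11 had probe sets on both sides. The same tally was not made over all genes, so these counts have no background. Probe sets of a gene read the same RNA on the same arrays, so they repeat the measurement of a transcript and not the experiment.

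**Figure D4:**
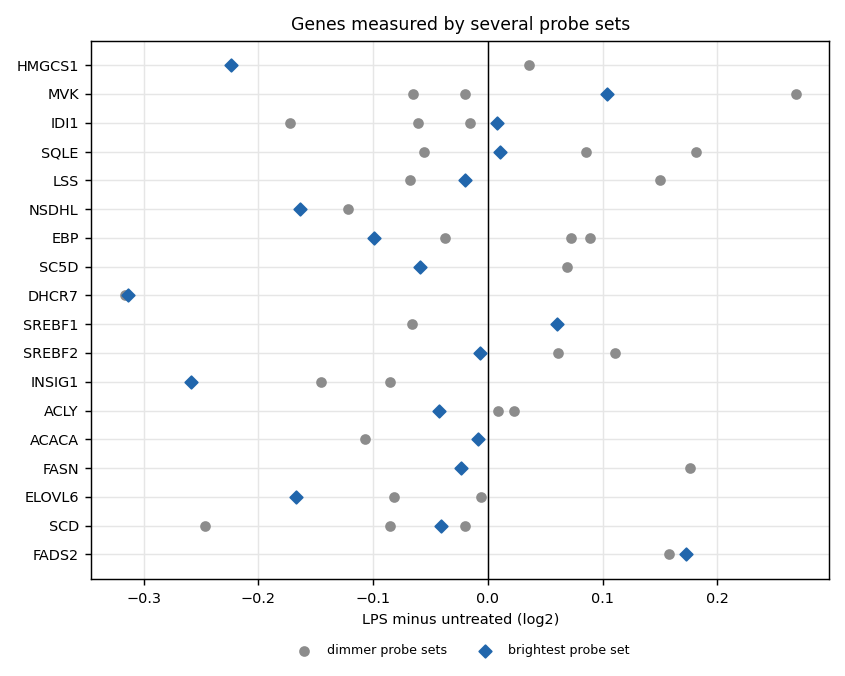
LPS minus untreated on the log2 scale for each probe set of the 18 genes that had more than 1, with blue diamonds for the brightest probe set, which stands for the gene, and grey circles for the others. The DHCR7 probe sets coincide near -0.3 and the FADS2 probe sets lie together above 0.1, while those of MVK spread from -0.06 to 0.27.

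The intervals give the size of change that these arrays leave possible. All 28 intervals excluded a 2-fold difference in either direction, 26 excluded 1.5-fold, and 11 excluded 1.25-fold. To either side of the estimate the interval reached 0.27 on the log2 scale in the median gene and 0.40 in DHCR7, the widest. These bounds hold for the array values, and for dim genes the change in transcript may be understated. Both replicate 2 arrays lay above both replicate 1 arrays in 11 of the 28 genes (39.3%, against 32.6% of all genes) and below in 5 (17.9%, against 16.5%). The 18S ribosomal RNA control probe sets went with those numbers, at 10.07 and 9.89 on untreated and LPS replicate 1 and at 8.12 and 7.98 on replicate 2, and their part in these values was not tested.

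Other genes of lipid metabolism, from lists kept apart from the 28 genes, did not pass either (limma, adjusted p = 1 for each). Of 8 genes of SREBP processing and sterol-regulated degradation, 0 passed. The ubiquitin-conjugating enzyme gene UBE2G2 differed by 0.28 ± 0.11 (SE; unadjusted p = 0.037), at 10.40 and 10.53 in untreated and 10.85 and 10.65 in treated cells, TMEM97, a sterol-regulated membrane protein gene, by 0.14 ± 0.11 and MBTPS1, the first protease that cleaves SREBP, by 0.11 ± 0.10. In these 3 the treated arrays lay above the untreated ones, as in 17.9% of all genes, but 4 of the 8 lay below 0, among them the phosphatidate phosphatase gene LPIN1 at -0.15 ± 0.14. Of 8 genes of LXR signalling and cholesterol efflux, 0 passed, with SMPDL3A, a phosphodiesterase gene induced by LXR, at -0.26 ± 0.12 and the lysosomal lipase gene LIPA at -0.19 ± 0.11. ABCA1, the efflux pump, differed by -0.10 ± 0.11. These 3 had treated arrays below the untreated ones, as did 11.7% of all genes, and over the 8 genes 5 lay below 0 and 3 above, with the HDL receptor gene SCARB1 at 0.11 ± 0.16. LPIN1 and SCARB1 were chosen after their values were seen.

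Of 16 other lipogenic genes, not all of them enzymes, 0 passed, and 11 lay above 0. SCD5, a second stearoyl-CoA desaturase, differed by -0.34 ± 0.14 (SE; unadjusted p = 0.0371), at 7.80 and 7.64 in untreated and 7.50 and 7.25 in treated cells. TECR, a reductase of fatty acid elongation, differed by -0.30 ± 0.21 with LPS replicate 1 low, and ACSL1, an acyl-CoA synthetase, by -0.18 ± 0.14. The 8 enzymes of the isoprenoid branch, which lead from farnesyl diphosphate to ubiquinone, dolichol and prenyl groups, had a median of 0.02 and 0 passed. The farnesyltransferase gene FNTB differed by 0.20 ± 0.24, PDSS2 by -0.07 ± 0.11 and DHDDS by 0.07 ± 0.12, and all of them had overlapping arrays.

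The arrays carried the markers of an epithelial gastric line. All 8 epithelial and gastric markers, among them EPCAM, KRT18 and TFF1, lay at or above the median over genes, with means of 7.81 to 14.40. None of 5 leukocyte markers and none of 6 adipocyte and hepatocyte markers did, with highest means of 7.12 and 7.01, and of 6 fibroblast and endothelial markers COL1A1 did, at 8.63. The adipocyte and hepatocyte markers, from tissues with high lipid synthesis, had differences of -0.04 to 0.18 between the groups.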

How the data were processed

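The authors deposited log2 expression values for 54675 probe sets on 4 arrays. MAS5 and RMA are listed in the submitters' processing notes with no role given, and settings are not given in the sources used here. The values have the form of RMA output, with medians of 6.31 to 6.36, and were used as they stood. Probe sets with 1 symbol in the platform annotation (41091) gave 19775 genes. The LPS and untreated groups were compared in R 4.3.3 by a linear model in limma 3.58.1 with moderated variances that follow intensity. The test was two-sided without covariates, and p-values were adjusted by Benjamini-Hochberg over every gene. Differences carry the SE or 95% interval of that model. An exact permutation test of 2 against 2 arrays cannot go below p = 0.33. Every measured member was named. From each other list up to 3 genes were named, those with the largest moderated statistic in size. LPIN1 and SCARB1 were named in addition, after their values were seen. Members and lists were chosen with earlier results of these data known. The script was checked on simulated data. The number of arrays limits the precision. Promoter windows come from RefSeq (GRCh38.p14). The alternatives tried were quantile normalization, only genes at or above median expression, averaging a gene's probe sets, leaving out _x_at and _s_at probe sets, variances without the trend, the replicate number as a block, and leaving out each array. Figures were drawn with matplotlib 3.10.9.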

Additional observations from a re-analysis of the deposited data

How the results depend on the processing

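No gene of the group passed the adjusted test under any of the 10 alternatives, and 11 of the 28 genes kept their sign in all that could be run for them, though not their size. With 1 array left out at a time these ran from -0.335 to -0.113 for HMGCS1, 0.048 to 0.161 for MVK, 0.018 to 0.076 for FDPS, -0.217 to -0.090 for ACAT2, 0.002 to 0.019 for SQLE, -0.225 to -0.102 for NSDHL, -0.570 to -0.058 for DHCR7, -0.393 to -0.125 for INSIG1, -0.213 to -0.036 for STARD4, -0.224 to -0.110 for ELOVL6 and 0.064 to 0.281 for FADS2. Leaving out 1 array cannot turn the sign of a gene whose arrays did not overlap, which holds for all of these but FDPS, DHCR7 and STARD4. Variances without the trend, the block and the restriction by expression leave each difference as it was, so they could not turn a sign either. How many of all genes kept their sign was not computed. The other 17 members changed sign in at least 1 alternative, and none of those differences had passed the test. With quantile normalization SREBF2 was at 0.004 and INSIG2 at 0.007. With the mean of all probe sets IDI1 was at -0.060, LSS at 0.021, EBP at 0.006, SC5D at 0.005, SREBF1 at -0.003, SREBF2 at 0.055 and FASN at 0.076, and the medians were -0.049 for the mevalonate pathway, 0.038 for squalene to lanosterol and 0.005 for lanosterol to cholesterol. Leaving out _x_at and _s_at probe sets left 19 of the genes, with IDI1 at -0.172, EBP at 0.089 and SC5D at 0.069. Of these 19 genes 11 lay below 0, and the medians were -0.063 for the mevalonate pathway and 0.002 for lanosterol to cholesterol. With 1 array left out those whose sign turned ran from -0.137 to 0.039 for PMVK, -0.129 to 0.313 for MVD, -0.036 to 0.052 for IDI1, -0.088 to 0.048 for LSS, -0.177 to 0.200 for TM7SF2, -0.147 to 0.018 for MSMO1, -0.104 to 0.312 for HSD17B7, -0.248 to 0.050 for EBP, -0.128 to 0.009 for SC5D, -0.076 to 0.197 for SREBF1, -0.168 to 0.154 for SREBF2, -0.048 to 0.233 for SCAP, -0.078 to 0.073 for INSIG2, -0.092 to 0.007 for ACLY, -0.093 to 0.077 for ACACA, -0.269 to 0.222 for FASN and -0.105 to 0.024 for SCD. The medians then ran from -0.084 to 0.016 for all 28 genes, -0.090 to 0.039 for the mevalonate pathway, -0.177 to -0.051 for lanosterol to cholesterol, -0.076 to 0.064 for SREBP regulation and -0.099 to 0.050 for fatty acid synthesis. The causes of these changes were not tested. Over all genes, leaving out 1 array gave 0 to 2 genes higher and 0 to 14 lower. Those calls came without LPS replicate 2, a setting in which the remaining LPS array borrows its variance from the untreated arrays, and none was in the group described. With the replicate number as a block 0 genes passed in either direction (limma, smallest adjusted p = 0.292), 1487 genes (7.52%) against 559 reached an unadjusted p under 0.05, and 3 of the 28 genes (10.7%) against 0 did so: INSIG1 (limma, unadjusted p = 0.0221), DHCR7 (0.0355) and ELOVL6 (0.0473), each with an adjusted p of 0.64. Deviations of same-numbered arrays correlated at 0.44 across genes. The labels do not say that the number marks a pairing. The small number of arrays and the dim signal of MVD, STARD4 and FADS2 limit what these values can show.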
